A study of Mus musculus with 24 samples.

Results

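The reactive astrocyte genes described here are 10 genes, Gfap, Vim, Nes, Cd44, Timp1, Emp1, S1pr3, Serpina3n, Lcn2 and Steap4. They were chosen by name, with earlier results of these data known. All 10 had a line among the 22314 named lines of the deposited table, and all 10 passed the filter on low values, which left 18364 genes to test. Total hippocampal RNA was sequenced from mouse pups subjected to hypoxia-ischemia, a model of birth asphyxia, on postnatal day 10. The 24 libraries came from the ipsilateral, injured hippocampus and from the contralateral hippocampus, labelled 6 h or 3 h. These times are read here as times after the insult, since titles give both for every genotype, but the series' description can also be read as insults of different length for the 2 knockouts, and the meaning of each time and genotype comparison rests on this reading. The animals were labelled Neil1-KO, Neil2-KO or wild type (WT), which gave 12 groups of 2 libraries. Neil1 and Neil2 are DNA glycosylases that remove oxidized bases, and the KO labels give no cell type, promoter or allele. The side and time labels imply that every animal, WT included, had undergone the insult, so the contralateral side is not an untreated control. Whether each replicate is 1 animal, and whether same-numbered sides share one, is not stated outright.

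Astrocytes respond to injury with a programme called reactive astrogliosis, in which the intermediate filament cytoskeleton is enlarged and adhesion receptors, protease inhibitors and acute-phase proteins are induced. In mice a core of these genes, which includes Gfap, Vim, Cd44, Timp1, S1pr3, Serpina3n, Lcn2 and Steap4, is induced after both ischemia and endotoxin and is called pan-reactive, while Emp1 belongs to a set named A2 that was seen after ischemia. Cytokines of the interleukin 6 family, acting through the shared receptor gp130 and the transcription factor STAT3, are a textbook inducer of the programme. None of the 10 genes is restricted to astrocytes: Vim and Nes also mark progenitors and vessels, Cd44 and Timp1 are made by immune and vascular cells, and Lcn2 is abundant in neutrophils. In bulk tissue a change in the number of cells of a type and a change in RNA per cell cannot be told apart.

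Depth was 17771293 to 29252067 reads per library. Neil2 averaged 1.09 ± 1.18 normalized counts in Neil2-KO libraries and 20.7 ± 4.66 in WT libraries (SD, n = 8 each), but Neil1 averaged 126 ± 23.3 in libraries labelled Neil1-KO and 98.0 ± 22.2 in WT libraries (n = 8 each), so that the label was not borne out by the level of its gene. The table does not say which part of Neil1 the reads came from. Xist was at least 7604 in 6 libraries, 4 labelled Neil1-KO and 2 Neil2-KO, and at most 20.2 in the others. No WT library had high Xist, so the genotype comparisons were not balanced for it. Homeostatic astrocyte genes marked every library, with a summed level of 68061 to 134217 ipsilaterally and 86773 to 103943 contralaterally at 6 h. Choroid plexus is a neighbouring tissue that can be carried along in dissection. Its transcript Ttr exceeded 10000 in 8 libraries, 3 ipsilateral and 5 contralateral, and was at most 3858 in the other libraries.

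Across the genotypes, 9 of the 10 genes were higher on the ipsilateral side at 6 h, against 24% of all genes tested, and none was lower, against 24.7%. At 3 h 7 of the 10 were higher, against 14.1% of all genes tested, and none was lower, against 17.4%. The median log2 fold change of the 10 genes, ipsilateral over contralateral, was 1.95 at 6 h and 0.92 at 3 h, beside 0.02 at 6 h and 0.01 at 3 h over all genes tested. Emp1 and Timp1 had the highest fold changes of the 10 at 6 h, and Gfap and Serpina3n the lowest. At 6 h all 6 ipsilateral libraries lay above all 6 contralateral libraries for 7 of the genes, which held for 9.55% of all genes tested. At 3 h this was so for 4 of the genes, against 7.07% of all genes tested. Each of the 6 ipsilateral libraries exceeded its same-numbered contralateral partner for 8 of the genes at 6 h and 7 at 3 h, against 16.2% of all genes tested at either time. Because the 10 genes were chosen with earlier results of these data known, these shares do not test whether the set stands out.

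**Figure D1:**
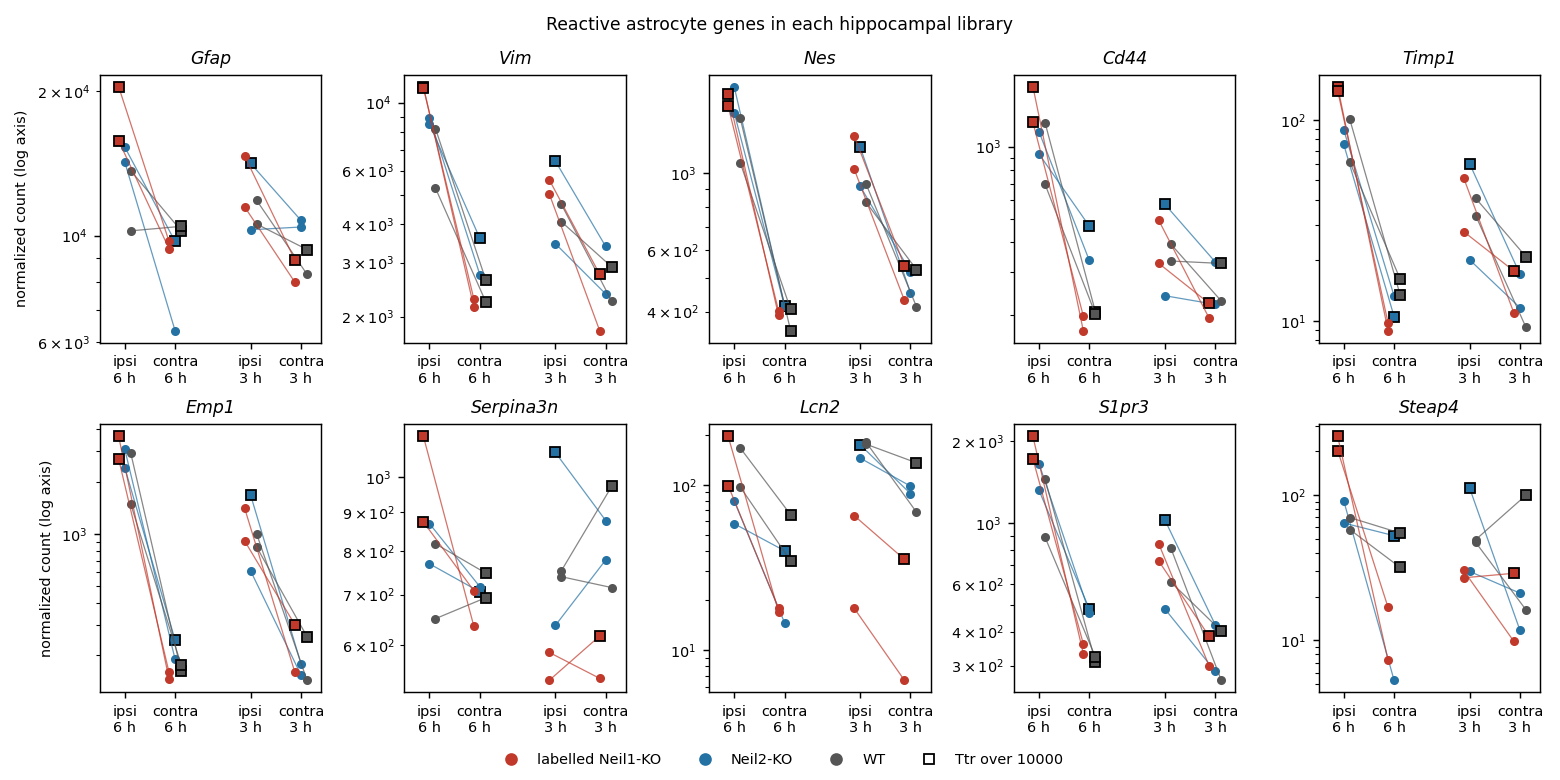
Normalized count (log axis) of each of the 10 genes in each library, ipsilateral left of contralateral, at 6 h and at 3 h. Lines join same-numbered libraries of the 2 sides, colours give the genotype label, and black-edged squares mark the 8 libraries with Ttr over 10000. Emp1, Nes, Vim and S1pr3 separate the sides without overlap at both times, whereas the Steap4 and Lcn2 points spread widely within a side.

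Among the intermediate filament genes, Gfap, the cytoskeletal protein by which astrocytes are usually stained, changed less in ratio than the other 2. At 6 h it ranged from 10235 through a median of 14763 to 20399 normalized counts ipsilaterally and from 6350 through 9731 to 10457 contralaterally. The highest ipsilateral library was labelled Neil1-KO replicate 2, and the sides overlapped only through WT replicate 2, whose ipsilateral value of 10235 was below its own contralateral value of 10457. This gave a log2 fold change of 0.67 ± 0.112 (SE; 1.59-fold, adjusted p = 8.03e-05) at 6 h. At 3 h the ipsilateral range of 10287 to 14655 overlapped the contralateral range of 8004 to 10762, and the log2 fold change was 0.38 ± 0.112 (adjusted p = 0.0137). Without Neil2-KO ipsilateral replicate 2 the 3 h value was 0.31 and was no longer called (adjusted p = 0.0595). Fold changes are on the scale of log2(normalized count + 1), which understates those of genes with few reads.

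The proximal promoter of Gfap is shown because STAT3 is a known activator of this gene. It lies at chr11:102897151-102897450 on the minus strand of GRCm38.p6 (sequence from RefSeq), and the capitals mark its 1 match to the STAT motif TTCNNNGAA, which starts at position -2, counted from the annotated start of the gene.
Gfap: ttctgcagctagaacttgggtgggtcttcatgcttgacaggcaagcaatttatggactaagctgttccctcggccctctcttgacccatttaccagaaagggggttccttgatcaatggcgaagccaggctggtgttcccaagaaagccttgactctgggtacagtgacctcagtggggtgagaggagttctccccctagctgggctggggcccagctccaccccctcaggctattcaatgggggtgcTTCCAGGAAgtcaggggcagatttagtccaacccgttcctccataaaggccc
The STAT motif was found in the windows of 3 of the 10 genes, Gfap, Emp1 and Steap4, and in 8.3% of the 32851 RefSeq windows of the same length. Both strands were searched in windows of 250 bases before to 50 bases after each start. Sequence farther from a start was not searched, so a STAT site there would not be seen. A match describes the letters in the window and is not evidence of binding.

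Vim, the filament protein of immature and reactive astrocytes, and Nes, the filament protein of neural progenitors that astrocytes express again after injury, moved together. At 6 h Vim ranged from 5255 through 8727 to 11277 normalized counts ipsilaterally and from 2152 through 2458 to 3603 contralaterally. Its log2 fold change was 1.75 ± 0.152 (3.37-fold, adjusted p = 6.6e-08) at 6 h and 0.92 ± 0.152 (adjusted p = 0.000176) at 3 h. The sides did not overlap at either time, and the libraries labelled Neil1-KO were the highest at 6 h. Nes ranged from 1070 through 1524 to 1770 ipsilaterally and from 353 through 405 to 417 contralaterally at 6 h. Its contralateral libraries were tightly grouped, and its log2 fold change of 1.90 ± 0.0999 (3.73-fold, adjusted p = 2.02e-10) had the smallest SE of the 10 genes. At 3 h Nes was 824 to 1281 ipsilaterally and 413 to 542 contralaterally, and its log2 fold change was 1.08 ± 0.0999 (adjusted p = 4.15e-07).

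Other intermediate filament genes moved in both directions. Of 11 tested filaments and linkers, 5 were called higher and 3 lower ipsilaterally at 6 h, and 3 higher and 2 lower at 3 h. The shares of all genes tested were 24% higher and 24.7% lower at 6 h. At 3 h they were 14.1% and 17.4%, and these shares apply to each list below. The nuclear lamin Lmna (log2 fold change 1.60 ± 0.177, adjusted p = 9.82e-07) and the muscle filament Des (1.65 ± 0.217, adjusted p = 6.16e-06) rose at 6 h. The neurofilaments Nefl (-0.69 ± 0.0879, adjusted p = 4.7e-06) and Nefm (-0.40 ± 0.122, adjusted p = 0.0118) fell. Neuron markers fell with them: 8 of 9 were lower at 6 h and 6 of 9 at 3 h, and their summed level at 6 h was 68976 to 129622 ipsilaterally and 155924 to 189340 contralaterally. Of 8 markers of hippocampal regions 8 were lower at 6 h and 6 at 3 h. The part of these lower levels in the rise of the glial genes was not tested.

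Cd44, the receptor for hyaluronan and osteopontin, had the largest ipsilateral difference between the times. At 6 h it ranged from 698 through 1207 to 1775 normalized counts ipsilaterally and from 172 through 204 to 467 contralaterally, with no overlap. Its highest contralateral value belonged to Neil2-KO replicate 1. The 6 h log2 fold change was 2.20 ± 0.200 (4.59-fold, adjusted p = 1.09e-07). At 3 h the sides overlapped, at 240 to 576 ipsilaterally and 193 to 332 contralaterally, although every ipsilateral value was above its same-numbered contralateral one. The 3 h log2 fold change of 0.60 ± 0.200 (adjusted p = 0.028) was not robust: leaving out any of 6 of the 12 libraries, which included both sides of replicate 2 of WT and of Neil1-KO as labelled, ended the call (adjusted p from 0.0679 to 0.115). The other 2 of those libraries were Neil2-KO contralateral replicate 1 and ipsilateral replicate 2. Omitting Neil2-KO ipsilateral replicate 2 moved the value to 0.39, and omitting the 8 libraries with Ttr over 10000 moved it to 0.51 (adjusted p = 0.0798), which was not called.

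Among genes tied to CD44 ligands or linking CD44 to the cytoskeleton, 8 of 12 were higher at 6 h. At 3 h 4 of 12 were, and the shares of all genes tested were 24% and 14.1%, in that order. None was lower by limma in the main fit, and 1 was lower at 3 h by DESeq2 or with only the compared groups. Spp1, which encodes osteopontin, had a log2 fold change of 3.75 ± 0.277 (adjusted p = 1.11e-08) at 6 h and 2.39 (adjusted p = 5.65e-06) at 3 h. The hyaluronan synthases Has2 (2.55 ± 0.288, adjusted p = 1.2e-06) and Has1 (1.11 ± 0.216, adjusted p = 0.000351) and the cytoskeletal linker Msn (1.36 ± 0.112, adjusted p = 3.32e-08) rose at 6 h. The hyaluronan receptor Hmmr did not pass the test (-0.03 ± 0.133, adjusted p = 0.884).

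Timp1, a secreted inhibitor of matrix metalloproteinases, started from few reads. At 6 h it ranged from 61.7 through 94.9 to 146 normalized counts ipsilaterally and from 8.93 through 11.9 to 16.2 contralaterally. The libraries labelled Neil1-KO held the highest ipsilateral values, 146 and 140, and the lowest contralateral ones, 8.93 and 9.76, which rest on 9 and 8 reads. The log2 fold change was 2.95 ± 0.263 (7.70-fold, adjusted p = 8.63e-08) at 6 h. At 3 h, with 20.1 to 60.5 ipsilaterally and 9.26 to 20.8 contralaterally, Timp1 had a value of 1.33 ± 0.263 (adjusted p = 0.000882). The sides overlapped at 3 h only between Neil2-KO ipsilateral replicate 1, at 20.1, and WT contralateral replicate 1, at 20.8.

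Among the 10 other tested genes of the TIMP and metalloproteinase families 6 were higher and 1 lower at 6 h, and 5 higher and 1 lower at 3 h. The aggrecanases Adamts4 (log2 fold change 2.01 ± 0.157, adjusted p = 2.09e-08) and Adamts1 (2.72 ± 0.280, adjusted p = 4.3e-07) rose at 6 h, as did the macrophage elastase Mmp12 (4.20 ± 0.461, adjusted p = 8.85e-07). Within the inhibitor family Timp3 rose (1.16 ± 0.131, adjusted p = 1.22e-06), Timp2 fell (-0.33 ± 0.0912, adjusted p = 0.006), and Timp4 was -0.12 ± 0.138 (adjusted p = 0.5) at 6 h. Mmp9, a protease that TIMP1 binds also as its proenzyme, was not called (0.14 ± 0.151, adjusted p = 0.454).

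Emp1, a small membrane protein of the PMP22 family, had the highest fold change of the 10 genes at both times. At 6 h it ranged from 1486 through 2815 to 3648 normalized counts ipsilaterally and from 146 through 170 to 246 contralaterally. WT replicate 2 gave the lowest ipsilateral value and Neil1-KO as labelled replicate 1 the highest, and the sides were far apart. Within same-numbered pairs the ratio of the sides was 8.42 to 25.0 at 6 h and 3.05 to 9.37 at 3 h. Emp1 had a log2 fold change of 3.87 ± 0.234 (14.7-fold, adjusted p = 1.16e-09) at 6 h and 2.41 ± 0.234 (5.31-fold, adjusted p = 8e-07) at 3 h. At 3 h the ipsilateral libraries held 614 to 1678 and the contralateral ones 144 to 300. All 3 tested relatives, Pmp22 (1.58 ± 0.143, adjusted p = 1.05e-07), Emp3 (1.11 ± 0.194, adjusted p = 0.000128) and Emp2 (0.31 ± 0.113, adjusted p = 0.0309), were higher at 6 h, and Pmp22 and Emp3 also at 3 h.

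The proximal promoter of Emp1 is shown because it was the only one of the 10 with a match to the AP-1 motif TGANTCA. The window lies at chr6:135362681-135362980 on the plus strand of GRCm38.p6 (sequence from RefSeq, at the first of 2 annotated starts), and the capitals mark 2 AP-1 matches, at positions -145 and -25, and 2 STAT matches, at -120 and -22. The matches at -25 and -22 overlap and appear as 1 run of capitals.
Emp1: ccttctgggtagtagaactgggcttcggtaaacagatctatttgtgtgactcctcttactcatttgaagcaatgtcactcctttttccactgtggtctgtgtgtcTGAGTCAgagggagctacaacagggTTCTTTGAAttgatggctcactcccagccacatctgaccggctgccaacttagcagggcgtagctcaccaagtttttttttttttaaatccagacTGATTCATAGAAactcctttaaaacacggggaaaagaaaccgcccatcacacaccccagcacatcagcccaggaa
The AP-1 motif was present in 7.81% of all windows. The second Emp1 window held none of the motifs searched.

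S1pr3, a receptor for sphingosine 1-phosphate, ranged from 889 through 1555 to 2085 normalized counts ipsilaterally and from 311 through 347 to 485 contralaterally at 6 h. Both libraries labelled Neil1-KO were above the others on the ipsilateral side, and the sides did not overlap at either time. The log2 fold change was 1.97 ± 0.172 (3.93-fold, adjusted p = 6.78e-08) at 6 h and 1.11 ± 0.172 (adjusted p = 9.96e-05) at 3 h. Of 9 other genes of this lipid's receptors and metabolism 5 were higher and 1 lower at 6 h, and 3 higher and 1 lower at 3 h. The receptors S1pr2 (1.23 ± 0.127, adjusted p = 4.46e-07) and S1pr1 (1.09 ± 0.130, adjusted p = 2.19e-06) and the degrading lyase Sgpl1 (0.94 ± 0.0675, adjusted p = 8.37e-09) rose at 6 h. The exporter Spns2 fell (-0.47 ± 0.105, adjusted p = 0.00125).

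**Figure D2:**
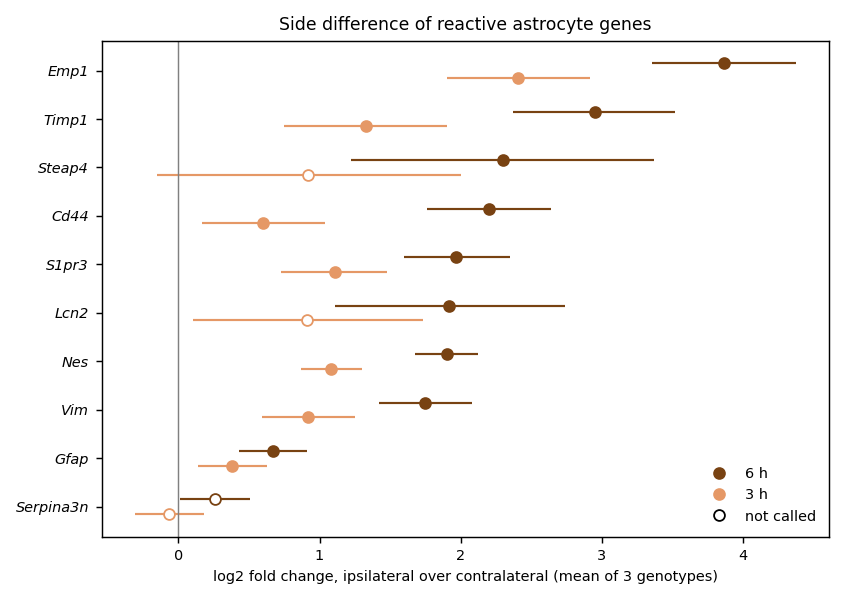
Log2 fold change of each gene, ipsilateral over contralateral, as the mean of the 3 genotypes at 6 h and at 3 h, with 95% confidence intervals from limma. Filled points were called at an adjusted p under 0.05. Emp1 and Timp1 lead at 6 h with 3.87 and 2.95, and Serpina3n, the lowest, is open at both times.

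The acute-phase genes behaved less uniformly. Serpina3n, a serine protease inhibitor related to human alpha-1-antichymotrypsin, ranged from 651 through 843 to 1133 normalized counts ipsilaterally and from 637 through 707 to 747 contralaterally at 6 h. The sides overlapped, 5 of 6 ipsilateral libraries were above their same-numbered partner, and the log2 fold change of 0.26 ± 0.114 was not called (adjusted p = 0.0671). With the replicate pairs as a block it was called at the same size (adjusted p = 0.0445). It was also called without ipsilateral WT replicate 2 or ipsilateral replicate 1 of the animals labelled Neil1-KO (0.32 in both). Without ipsilateral replicate 2 of that label it was 0.20 and was not called. At 3 h the value was -0.07 ± 0.114 (adjusted p = 0.697), and 3 of 6 ipsilateral libraries were above their partner. Of 6 tested neighbours in the Serpina3 cluster 3 were called higher at 6 h, Serpina3g (1.33 ± 0.389, adjusted p = 0.00858), Serpina3i (0.97 ± 0.294, adjusted p = 0.0109) and Serpina3f (0.47 ± 0.187, adjusted p = 0.0441), and none at 3 h. These genes are near copies of each other, so reads may have been shared among them in counting.

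Lcn2, the siderophore-binding protein lipocalin 2, differed as much between animals as between sides. At 6 h it ranged from 58.1 through 98.0 to 196 normalized counts ipsilaterally and from 14.6 through 26.3 to 65.9 contralaterally. At 3 h it ranged from 17.9 through 160 to 181 ipsilaterally and from 6.55 through 78.4 to 136 contralaterally, and the libraries labelled Neil1-KO were the lowest on both sides. The sides overlapped at both times, yet each ipsilateral library was above its same-numbered partner. The log2 fold change was 1.92 ± 0.375 (3.80-fold, adjusted p = 0.000355) at 6 h and 0.91 ± 0.375 (adjusted p = 0.072) at 3 h. With the replicate pairs as a block the 3 h value was the same and was called (0.91 ± 0.231, adjusted p = 0.00986). DESeq2 also called it (0.86, adjusted p = 0.0321). Leaving out contralateral replicate 1 (1.29) or ipsilateral replicate 2 (1.22) of the label Neil1-KO gave a limma call over genotypes too. Every other omission of 1 library left it uncalled, with values down to 0.54. Of 10 neutrophil and monocyte markers, 6 passed the filter, and the summed level of the 10 was 230 to 501 ipsilaterally and 170 to 259 contralaterally at 6 h. At 6 h 3 of the 6 were higher, Ccr2 (1.93 ± 0.379, adjusted p = 0.000393), Itgal (0.60 ± 0.206, adjusted p = 0.0231) and S100a9 (1.16 ± 0.453, adjusted p = 0.0416), and S100a9 also at 3 h (1.87 ± 0.453, adjusted p = 0.00419). Without the 6 h ipsilateral library labelled Neil1-KO replicate 2 only 1 of the 6 was higher at 6 h. That library held the highest Lcn2 level of all, 196, and the highest levels of the 4 markers that failed the filter, S100a8 (16.7), Plac8 (25.0), Retnlg (10.2) and Cxcr2 (10.2). These levels are as low as those of contralateral Timp1, and the part of such cells in the Lcn2 level was not tested.

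Steap4, a membrane metalloreductase of iron and copper, had the largest SE of the 10 genes. At 6 h it ranged from 57.9 through 80.6 to 253 normalized counts ipsilaterally and from 5.31 through 24.3 to 54.7 contralaterally, without overlap. At 3 h the ranges of 26.9 to 112 ipsilaterally and 9.83 to 99.8 contralaterally overlapped, and 4 of 6 ipsilateral libraries were above their partner. Its log2 fold change was 2.30 ± 0.493 (4.92-fold, adjusted p = 0.000855) at 6 h and 0.92 ± 0.493 (adjusted p = 0.168) at 3 h. Leaving out 1 library in turn gave 3 h values from 0.5 to 1.35. Among 11 other tested genes of lipocalin partners, the STEAP family and iron handling, 5 were higher and 1 lower at 6 h, and 4 higher and 1 lower at 3 h. The haem-degrading enzyme Hmox1 led them (2.92 ± 0.124, adjusted p = 2.57e-11), followed by Steap3 (0.99 ± 0.125, adjusted p = 3.83e-06) and the ferritin light chain Ftl1 (0.57 ± 0.0734, adjusted p = 4.77e-06). The transferrin receptor Tfrc fell (-0.64 ± 0.0858, adjusted p = 8.27e-06).

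The Steap4 promoter is shown because it carried matches to a pair of motifs. It lies at chr5:7960222-7960521 on the plus strand of GRCm38.p6 (sequence from RefSeq), and the capitals mark its STAT match at position -116.
Steap4: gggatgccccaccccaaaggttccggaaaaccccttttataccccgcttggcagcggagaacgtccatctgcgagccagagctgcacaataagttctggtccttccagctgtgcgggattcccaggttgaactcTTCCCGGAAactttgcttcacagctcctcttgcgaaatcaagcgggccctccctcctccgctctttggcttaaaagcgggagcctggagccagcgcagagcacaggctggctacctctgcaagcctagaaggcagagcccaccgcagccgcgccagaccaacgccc
It also held 2 matches to the NF-kB motif, at -250 and -226, which are not in capitals. That motif was present in the windows of 2 of the 10 genes, the other being Vim, and in 4.51% of all windows. The hypoxia response element core ACGTG was found for Cd44, Timp1 and S1pr3 and in 19.6% of all windows. The CArG box was found for none of the 10 genes and in 1.63% of all windows, and no match says only that these letters are absent from these windows.

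On each side Steap4 was higher in the libraries with Ttr over 10000 than in the others. Both ipsilateral high-Ttr libraries at 6 h were labelled Neil1-KO, so Ttr cannot be told apart from genotype and time there. In the 3 ipsilateral libraries with Ttr over 10000 Steap4 was 112 to 253 normalized counts, and in the 9 other ipsilateral libraries 26.9 to 91.2. In the 5 contralateral libraries with Ttr over 10000 it was 28.9 to 99.8, and in the 7 other contralateral libraries 5.31 to 21.1. The high-Ttr and other libraries did not overlap on either side, which among the 10 genes was otherwise so only for Serpina3n on the ipsilateral side (874 to 1133 against 540 to 869). Emp1 gave overlapping ranges on the ipsilateral side, 1678 to 3648 in the high-Ttr libraries against 614 to 3092 in the others. With a term for the mean of the 10 choroid plexus markers in the fit, Steap4 was called at 3 h too, with a log2 fold change of 1.28 ± 0.261 (adjusted p = 0.00114), and at 6 h it was 2.67 ± 0.262 (adjusted p = 2.82e-07). Lcn2 was likewise called at 3 h with this term (1.15 ± 0.256, adjusted p = 0.00221), and Serpina3n at 6 h (0.32, adjusted p = 0.0148). Without the 8 high-Ttr libraries, an analysis chosen after seeing the data, the 3 h values were 1.28 ± 0.280 for Steap4 (adjusted p = 0.00555) and 1.41 ± 0.324 for Lcn2 (adjusted p = 0.00731). That omission left no WT contralateral and no labelled Neil1-KO ipsilateral library at 6 h, so the 6 h sides could not be fitted over genotypes without them.

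**Figure D3:**
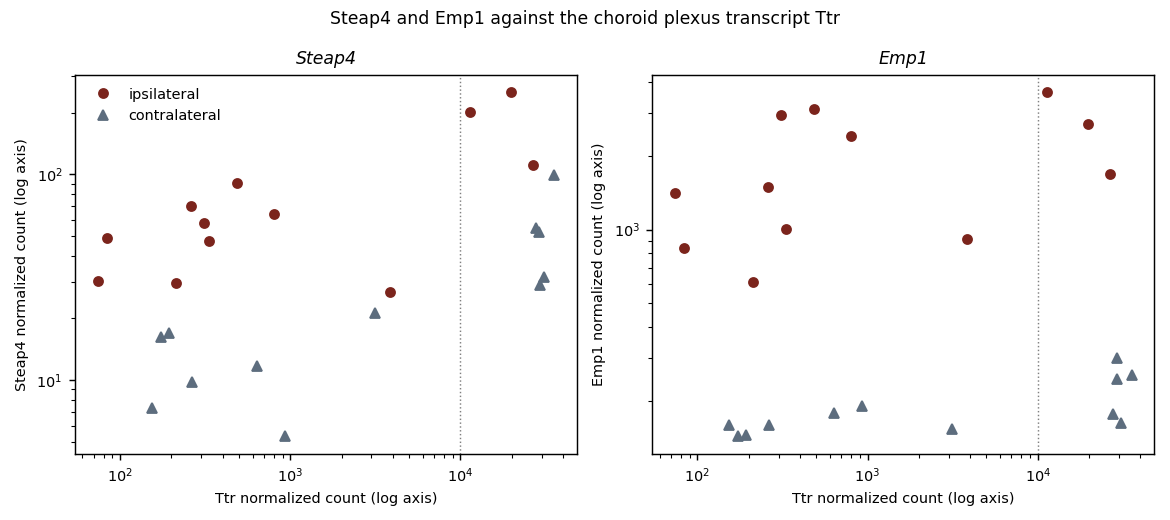
Normalized counts of Steap4 (left) and Emp1 (right) against those of Ttr in each of the 24 libraries (log axes), ipsilateral as circles and contralateral as triangles. The dotted line marks Ttr at 10000. Steap4 lies higher to the right of the line on both sides, while ipsilateral Emp1 spans 614 to 3092 to the left of it and 1678 to 3648 to the right.

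Within each genotype the same genes were counted separately, with 2 libraries a side. At 6 h 10 of the 10 genes were called higher in animals labelled Neil1-KO (17.6% of all genes tested were), 7 in Neil2-KO (12.2%) and 6 in WT (10.4%). None was lower, against 21.4% of all genes tested for the label Neil1-KO, 12.6% for Neil2-KO and 10.3% for WT. At 3 h 6 were called higher in animals labelled Neil1-KO (7.2%), 3 in Neil2-KO (4.29%) and 3 in WT (2.49%). None was lower, against 9.85% for the label Neil1-KO, 4.95% for Neil2-KO and 1.79% for WT. Emp1, Nes and S1pr3 were called in each genotype at each time. With the replicate pairs as a block the counts were 10, 8 and 7 at 6 h and 7, 4 and 4 at 3 h, in the same order of genotypes. In animals labelled Neil1-KO the 6 h call of Serpina3n (0.57, adjusted p = 0.0307) was lost without contralateral replicate 1 (0.64), contralateral replicate 2 (0.49) or ipsilateral replicate 2 (0.38; adjusted p from 0.0685 to 0.272), with the choroid plexus term (0.32, adjusted p = 0.249) and with only the compared groups (adjusted p = 0.0788). The median of the 10 log2 fold changes at 6 h was 2.69 for the label Neil1-KO, 1.55 for Neil2-KO and 1.57 for WT, and at 3 h it was 1.15, 0.89 and 0.83 in the same order of genotypes. With the choroid plexus term the order at 6 h turned, with medians of 2.04 for the label Neil1-KO, 1.91 for Neil2-KO and 2.40 for WT. High Ttr fell on opposite sides under the label Neil1-KO and in WT at 6 h, so carry-over and genotype cannot be told apart there. At 3 h leaving out 1 library moved the Neil2-KO median to 0.48 (without ipsilateral replicate 2) and the WT median to 0.49 (without contralateral replicate 2). Over all genes tested these medians lay between -0.01 and 0.02. The 3 h counts were fragile: leaving out WT replicate 2 of either side left 0 of the WT calls, and leaving out contralateral replicate 2 of the animals labelled Neil1-KO left 2 of theirs. Leaving out Neil2-KO ipsilateral replicate 2 moved S1pr3 in Neil2-KO at 3 h to 0.48 (adjusted p = 0.506).

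Gfap illustrates the genotypes at 6 h. It held 15750 and 20399 normalized counts ipsilaterally and 9401 and 9731 contralaterally in animals labelled Neil1-KO (log2 fold change 0.91 ± 0.193, adjusted p = 0.00133). In Neil2-KO animals it held 15292 and 14234 ipsilaterally and 9730 and 6350 contralaterally (0.91 ± 0.193, adjusted p = 0.00238). In WT animals it held 13646 and 10235 ipsilaterally and 10243 and 10457 contralaterally (0.19 ± 0.193, adjusted p = 0.522). Both KO labels separated the sides, and WT did not. The difference of the side responses was 0.71 (95% interval 0.12 to 1.31, adjusted p = 0.167) between the label Neil1-KO and WT, and 0.72 (0.12 to 1.31, adjusted p = 0.496) between Neil2-KO and WT, so neither passed the test. These differences share the WT libraries, and the Neil2-KO value includes contralateral replicate 2, at 6350 the lowest Gfap value of all libraries. Without that library the Neil2-KO side difference was 0.60 and was not called (adjusted p = 0.0631), and without ipsilateral replicate 1 of the label Neil1-KO its difference from WT was 0.90 and was called (adjusted p = 0.0327).

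Steap4 gave the largest contrast between the genotypes at 6 h. It held 202 and 253 ipsilaterally and 16.9 and 7.32 contralaterally in animals labelled Neil1-KO. It held 64.2 and 91.2 ipsilaterally and 52.5 and 5.31 contralaterally in Neil2-KO animals, and 57.9 and 69.9 ipsilaterally and 31.7 and 54.7 contralaterally in WT animals. The corresponding log2 fold changes were 4.22 ± 0.855 for the label Neil1-KO (adjusted p = 0.000887), 2.08 ± 0.855 for Neil2-KO (adjusted p = 0.0859) and 0.60 ± 0.855 for WT (adjusted p = 0.663). Ttr differed with them, at 11314 and 19798 ipsilaterally and 194 and 154 contralaterally for the label Neil1-KO, but 310 and 259 ipsilaterally and 30933 and 27741 contralaterally for WT. With the choroid plexus term the Steap4 values at 6 h became 2.52 ± 0.507 for the label Neil1-KO, 2.92 ± 0.460 for Neil2-KO and 2.58 ± 0.528 for WT. The difference of the side responses between the label Neil1-KO and WT was 3.62 (95% interval 0.99 to 6.26, adjusted p = 0.139) without the term and -0.07 ± 0.821 (adjusted p = 0.99) with it. None of these 6 h groups of the label Neil1-KO and WT held both a high-Ttr and a low-Ttr library. Choroid plexus carry-over and genotype therefore cannot be told apart in this contrast.

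Timp1, Cd44 and Vim also had their highest 6 h side responses under the label Neil1-KO when the choroid plexus term was left out. Timp1 had log2 fold changes of 3.80 ± 0.456 under that label, 2.70 ± 0.456 in Neil2-KO and 2.34 ± 0.456 in WT, all called. Cd44 had 3.02 ± 0.347, 1.39 ± 0.347 and 2.20 ± 0.347 in the same order. The Neil2-KO value was 1.15 without contralateral replicate 2 and 1.23 without ipsilateral replicate 2 of that genotype, and was then not called. Ipsilateral Cd44 was 1775 and 1262 normalized counts in animals labelled Neil1-KO, 932 and 1154 in Neil2-KO and 1259 and 698 in WT. Emp1 had 4.35 ± 0.405, 3.65 ± 0.405 and 3.61 ± 0.405 in that order. With the choroid plexus term the side response of the label Neil1-KO minus WT at 6 h was 0.47 ± 0.776 for Timp1, 0.11 ± 0.598 for Cd44, 0.07 ± 0.388 for Vim and -0.49 ± 0.608 for Emp1. Its median over the 10 genes was 0.78 without the term and -0.03 with it. In this contrast too, choroid plexus carry-over and genotype cannot be told apart. None of these differences between genotypes passed the test: of the 10 genes 0 were called for either KO label minus WT at either time, where 0% of all genes tested were called. At an unadjusted p under 0.05 the label Neil1-KO minus WT counted 4 at 6 h and 0 at 3 h, and Neil2-KO minus WT 1 at 6 h and 0 at 3 h. The edgeR and DESeq2 tests also called 0 of the 10 in each of these comparisons. With 2 libraries a group the intervals are wide, for example 0.05 to 2.86 for Timp1 and -0.51 to 1.99 for Emp1 under the label Neil1-KO at 6 h.

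**Figure D4:**
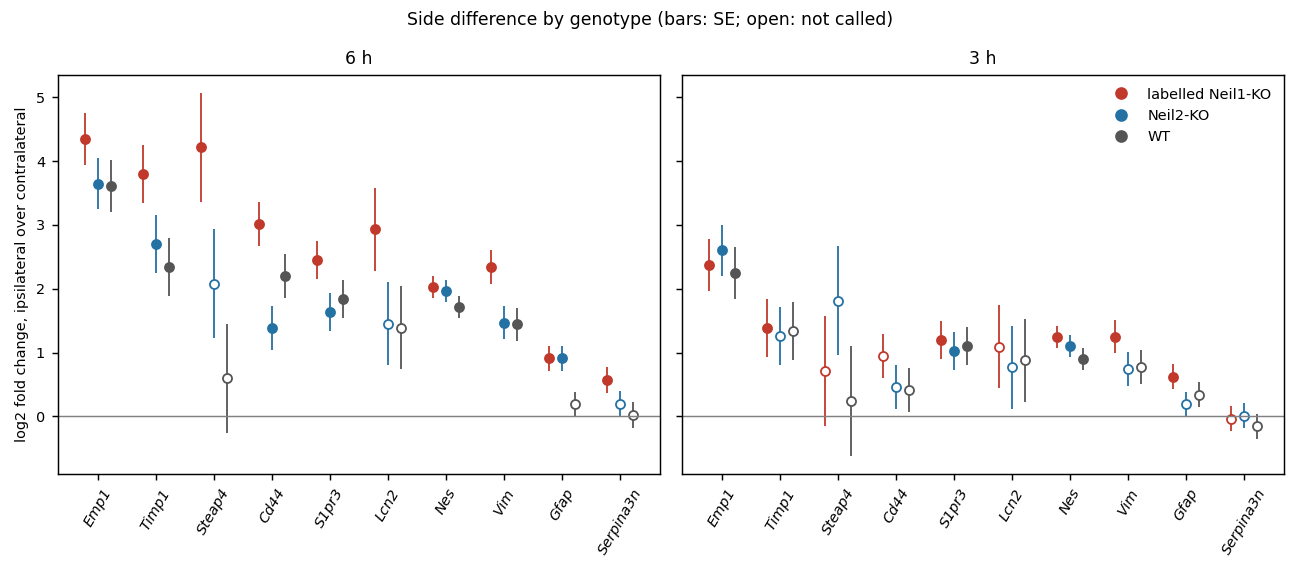
Log2 fold change, ipsilateral over contralateral, of each gene within each genotype at 6 h (left) and at 3 h (right), with SE. Filled points were called. At 6 h Steap4 spreads from 4.22 under the label Neil1-KO to 0.60 in WT, whereas Emp1 stays between 3.61 and 4.35.

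On the ipsilateral side at 6 h, libraries labelled Neil1-KO held the highest value of 9 of the 10 genes and WT replicate 2 the lowest of 8. At 3 h Neil2-KO replicate 2 held the highest of 7, and Neil2-KO replicate 1 the lowest of 6. Averaged over both times, the median log2 difference of the 10 genes on the ipsilateral side was 0.43 for the label Neil1-KO minus WT and 0.20 for Neil2-KO minus WT. On the contralateral side it was -0.22 for the label Neil1-KO and 0.03 for Neil2-KO. These medians became 0.19 and 0.08 ipsilaterally and -0.01 and 0.15 contralaterally with the choroid plexus term. Leaving out 1 library moved the ipsilateral medians to as little as 0.27 for the label Neil1-KO (without WT 6 h replicate 2) and -0.09 for Neil2-KO (without its 3 h replicate 2), where omitting WT 6 h replicate 2 gave 0.05. The Neil2-KO value also moved to 0.41 without its 3 h replicate 1, to 0.31 without WT 6 h replicate 1 and to 0.12 without its 6 h replicate 2. Contralaterally it moved the median of the label Neil1-KO to -0.06 without WT 3 h replicate 1, to -0.33 without WT 3 h replicate 2 and to -0.10 without its own 3 h replicate 2. The contralateral median of Neil2-KO ran from -0.12 without WT 3 h replicate 2 to 0.16 without WT 3 h replicate 1, so it had no stable sign. Again 0 of the 10 genes were called by limma in any of these comparisons. On the ipsilateral side 9.31% of all genes were called for the label Neil1-KO and 0.109% for Neil2-KO, and on the contralateral side 0.103% and 0.0817% in that order. At an unadjusted p under 0.05 the label Neil1-KO counted 5 ipsilaterally and 3 contralaterally, and Neil2-KO 1 ipsilaterally and 0 contralaterally. For the label Neil1-KO ipsilaterally, edgeR called 1 gene, Nes (0.41, adjusted p = 0.0433), and DESeq2 called 3, Nes, Vim and Gfap. Neither tool called a member for Neil2-KO.

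Lcn2 had the lowest difference from WT of the 10 genes under the label Neil1-KO. At 3 h it held 65.2 and 17.9 normalized counts ipsilaterally in animals labelled Neil1-KO, 145 and 175 in Neil2-KO and 176 and 181 in WT. On the contralateral side at 3 h it held 35.4 and 6.55 under the label Neil1-KO, 98.2 and 88.5 in Neil2-KO and 136 and 68.3 in WT. The 3 h ranges of the label Neil1-KO and WT did not overlap on either side. At 6 h the label Neil1-KO held 98.9 and 196 ipsilaterally against 97.0 and 167 in WT, so that the ipsilateral levels were not lower at that time. Contralaterally at 6 h it held 17.9 and 17.1 against 34.6 and 65.9 in WT, again without overlap. Over both times the log2 difference from WT was -1.98 ± 0.459 contralaterally (adjusted p = 0.143) and -1.11 ± 0.459 ipsilaterally (adjusted p = 0.125), not called by limma. DESeq2 called the contralateral difference (-1.88, adjusted p = 0.0053), and edgeR called 0 of the 10 genes there. With the choroid plexus term the ipsilateral difference was -1.79 ± 0.340 (adjusted p = 0.0247).

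On the ipsilateral side 6 of the 10, Cd44, S1pr3, Emp1, Vim, Nes and Timp1, were higher at 6 h than at 3 h, against 5.14% of all genes tested. Cd44 was 2.99-fold higher (log2 1.58 ± 0.200, adjusted p = 0.000434), S1pr3 2.02-fold (1.01 ± 0.172, adjusted p = 0.00185) and Nes 1.46-fold (0.54 ± 0.0999, adjusted p = 0.00274). Gfap (0.28 ± 0.112, adjusted p = 0.11) and Lcn2 (0.10 ± 0.375, adjusted p = 0.897) were not called. On the contralateral side 0 of the 10 were called by limma, edgeR or DESeq2, with 0.332% of all genes called and 2 members, Nes (-0.27) and Lcn2 (-0.91), at an unadjusted p under 0.05. Brains at the 2 times came from different animals.

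The difference between the side responses at the 2 times was tested directly. It was larger at 6 h than at 3 h for 4 of the 10 genes, against 1.43% of all genes tested: Timp1 by 1.62 ± 0.372 (log2, adjusted p = 0.0335), Cd44 by 1.60 ± 0.283 (adjusted p = 0.0116), Emp1 by 1.46 ± 0.331 (adjusted p = 0.0318) and Nes by 0.82 ± 0.141 (adjusted p = 0.0107). All 10 estimates were positive, from 0.29 for Gfap to 1.62 for Timp1, with a median of 0.94 beside -0.01 over all genes tested. The calls of Timp1 and Emp1 were lost in 14 and 13 of the 24 analyses that left out 1 library (adjusted p at most 0.087 and 0.0811), with values of 1.36 to 1.67 and 1.22 to 1.52 in those. With the choroid plexus term 7 of the 10 were called, Vim (0.83), S1pr3 (0.87) and Steap4 (1.40) being added, and with the replicate pairs as a block 5 were called, Vim being added (0.83, adjusted p = 0.0177).

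Other genes listed as reactive in astrocytes were counted beside the 10, and their cell source in this bulk tissue was not tested. Of 9 further pan-reactive genes tested, 7 were higher at 6 h and 6 at 3 h, and none was lower. The higher ones included Ccn1 (4.65 ± 0.278 at 6 h, adjusted p = 1.04e-09), the small heat shock protein Hspb1 (4.72 ± 0.333, adjusted p = 6.34e-09) and the oncostatin M receptor Osmr (2.15 ± 0.208, adjusted p = 2.14e-07). Of 11 A2-labelled genes 9 were higher and 1 lower at 6 h, and 6 higher and 2 lower at 3 h, with a median log2 fold change of 1.84 at 6 h. Of 11 A1-labelled genes, the set named for endotoxin, 6 were higher and 2 lower at 6 h, and 4 higher and 2 lower at 3 h, with a median of 0.37 at 6 h. The A2 genes Cd14 (4.62 ± 0.191, adjusted p = 2.12e-11) and B3gnt5 (2.75 ± 0.187, adjusted p = 4.17e-09) rose, as did the A1 genes Srgn (1.88 ± 0.154, adjusted p = 3.32e-08) and Gbp2 (2.67 ± 0.288, adjusted p = 7.07e-07), whereas the A1 genes Fkbp5 (-0.81 ± 0.0749, adjusted p = 1.22e-07) and Amigo2 (-0.97 ± 0.113, adjusted p = 1.66e-06) fell. Whether the A2 and A1 sets differed was not tested. Cd14 is also a monocyte and microglial receptor.

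Homeostatic astrocyte genes were called about as often as all genes tested. Of 12 tested, 3 were higher and 3 lower at 6 h, against 24% and 24.7% of all genes tested. At 3 h 1 was higher and 2 lower, against 14.1% and 17.4%. Their median log2 fold changes were 0.18 at 6 h and 0.12 at 3 h. The transcription factor Sox9 (1.56 ± 0.131, adjusted p = 4.38e-08) and the folate enzyme Aldh1l1 (0.46 ± 0.124, adjusted p = 0.00514) rose at 6 h. The gap junction protein Gjb6 (-0.96 ± 0.129, adjusted p = 7.83e-06) and the receptor Fgfr3 (-0.71 ± 0.134, adjusted p = 0.00027) fell. The summed level of the 12 genes overlapped between the sides at both times.

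In each of 3 sets of genes from pathways known to induce astrocyte reactivity more genes were called higher than lower. The sets include inhibitors of these pathways, so the counts are not counts of inducers. Of all genes tested 24% were higher and 24.7% lower at 6 h, and 14.1% and 17.4% at 3 h. In the gp130 and STAT3 pathway 10 of 13 genes were higher and 2 lower at 6 h, and 8 higher and 2 lower at 3 h. Its feedback inhibitor Socs3 had log2 fold changes of 3.98 ± 0.192 at 6 h (adjusted p = 9.23e-11) and 3.83 at 3 h, the cytokine Il6 3.62 ± 0.317 (adjusted p = 7.05e-08) and 2.83, and Stat3 itself 1.27 ± 0.112 (adjusted p = 7.98e-08) and 0.64. All 11 genes of interleukin 1, TNF, Toll-like receptor and C1q signalling were higher at 6 h and 7 of them at 3 h, with Tnf (4.09 ± 0.346, adjusted p = 4.84e-08), Il1a (5.01 ± 0.426, adjusted p = 5.02e-08) and Il1b (5.33 ± 0.509, adjusted p = 1.79e-07) in front at 6 h. Of 15 genes of TGF-beta, endothelin, EGF and FGF signalling 13 were higher and 2 lower at 6 h, and 5 higher and 2 lower at 3 h. There the inhibitory Smad7 (1.90 ± 0.0918, adjusted p = 9.23e-11), the growth factor Hbegf (2.40 ± 0.137, adjusted p = 5.7e-10) and Tgfb1 (1.66 ± 0.106, adjusted p = 2.1e-09) led at 6 h.

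**Figure D5:**
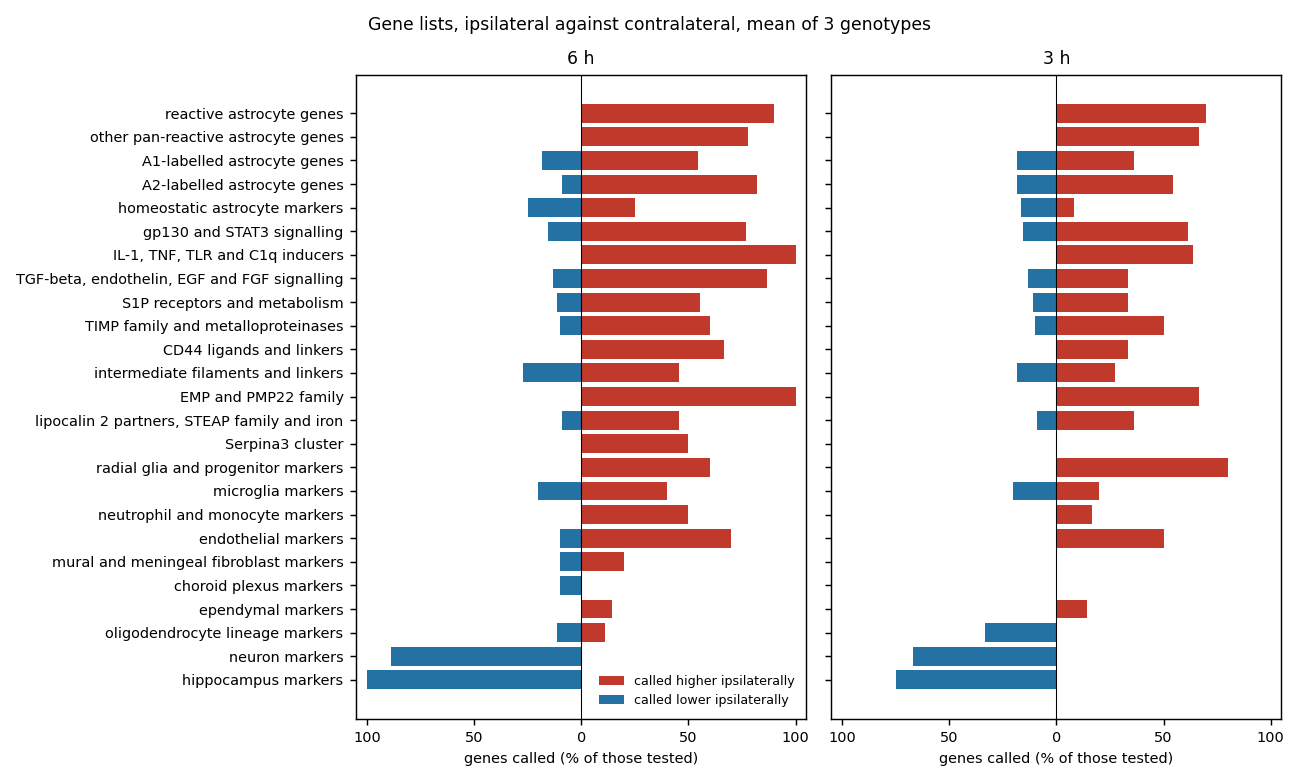
Share of the tested genes of each list called higher (red) or lower (blue) on the ipsilateral side, mean of 3 genotypes, at 6 h (left) and at 3 h (right). The reactive astrocyte genes reach 9 of 10 at 6 h and 7 of 10 at 3 h. Of 12 homeostatic astrocyte markers 3 are higher and 3 lower at 6 h, near the 24% and 24.7% of all genes tested.

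Markers of other cells that can express the 10 genes were counted too. Over all genes tested 24% were higher and 24.7% lower at 6 h, and 14.1% and 17.4% at 3 h. Endothelial and radial glia markers were higher more often than that at both times. So were microglia markers and the tested neutrophil and monocyte markers at 6 h, while several counts of the other lists were near or below these shares. Endothelial markers were higher for 7 of 10 and lower for 1 at 6 h, and higher for 5 of 10 at 3 h, and their summed level at 6 h was 6859 to 16324 ipsilaterally and 5421 to 6036 contralaterally, without overlap. Microglia markers were higher for 4 of 10 and lower for 2 at 6 h, and higher for 2 and lower for 2 at 3 h, with a sum of 3697 to 9253 ipsilaterally and 3425 to 4748 contralaterally at 6 h. Of the radial glia and progenitor markers 6 of 10 were higher at 6 h and 8 of 10 at 3 h, with none lower and overlapping sums. Mural and meningeal markers were higher for 2 of 10 and lower for 1 at 6 h and for none at 3 h, ependymal markers were higher for 1 of 7 at both times, and choroid plexus markers were lower for 1 of 10 at 6 h. The oligodendrocyte lineage had 1 of 9 markers higher and 1 lower at 6 h and 3 lower at 3 h. The part of these cells in the levels of the 10 genes was not tested. The ipsilateral library at 6 h labelled Neil1-KO replicate 2 held the highest endothelial, microglial and mural sums and the lowest neuronal sum of all libraries. The counts of microglia and mural markers called higher at 6 h fell when this library was left out. Without it 9 of the 10 genes were called at 6 h, as with it, and the log2 fold changes were 3.95 for Emp1, 2.96 for Timp1 and 0.61 for Gfap.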

How the data were processed

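The authors deposited a signal for each gene in each library, namely reads divided by a size factor. The named tools are featureCounts, DESeq2, HISAT2, Trim Galore and SAMtools, and the build is GRCm39, per the submitters' processing notes; versions, settings and strand use are not given in the sources used here. Each value was a whole multiple of the worth of 1 read in its library (100% of values, tolerance 1e-06), so whole reads were recovered for the count tests. Of 33084 lines 10770 (32.55%) carried no gene name (8.41 to 12.48% of reads) and were not tested. Reads of overlapping antisense genes cannot be told apart.

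Genes at 10 or more in at least 2 libraries (18364) entered limma 3.58.1 (trend option, R 4.3.3) on the scale of log2(value + 1), with a mean per group in 1 fit of all 24 libraries (12 residual degrees of freedom) and two-sided Benjamini-Hochberg adjustment over all of them. Called means an adjusted p under 0.05. P-values measure the spread between the libraries of a group. There were 19 comparisons. Titles and genotype tags disagreed for the 8 Neil2-KO libraries, whose tag reads NEIL1-KO; titles were used. Alternatives were a pseudocount of 5, no filter, TMM scaling, edgeR 4.0.16, DESeq2 1.42.0, only the compared groups, terms for Xist or choroid plexus markers, a replicate block, leaving out each library and, chosen after seeing the data, leaving out the 8 libraries with Ttr over 10000. The limma procedure was tested on simulated data. The design text says that both sides were taken from each of 2 replicates, and high Xist fell on both sides of the same 3 numbered animals, so same-numbered sides were taken as 1 animal in the block; the correlation of their deviations was 0.271 and 0.155 (label Neil1-KO, 3 h and 6 h), 0.0537 and 0.035 (Neil2-KO) and -0.00576 and -0.00334 (WT). Genes named are the 10 members, Neil1, Neil2, Xist and Ttr, and up to 4 called genes with the smallest adjusted p per list, plus members of a list with a textbook tie to 1 of the 10. The members and lists were chosen with earlier results of these data known. Motifs were searched in RefSeq promoter windows of GRCm38.p6, apart from the table's build. Python 3.11.15 was used for tables and figures.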

Additional observations from a re-analysis of the deposited data

Results flagged for a closer look

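The side difference, ipsilateral minus contralateral, was larger at 6 h than at 3 h by the interaction term of the limma fit for Timp1 (log2 1.62), Cd44 (1.60), Emp1 (1.46) and Nes (0.82). The calls of Timp1 and Emp1 depended on single libraries, as described above. Leaving out 1 library gave values of 1.36 to 1.88 for Timp1 and 1.22 to 1.71 for Emp1.

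Single libraries stood apart from the other 5 of their side and time in 3 of 40 sets of 6 libraries, by the gap to the nearest value as a share of the range; chance gives about 1 in 20. Gfap was 6350 normalized counts in the contralateral 6 h library of Neil2-KO replicate 2. Steap4 was 112 (111.6) in the ipsilateral 3 h library of Neil2-KO replicate 2, whose Ttr was 26783, and 99.8 (99.76) in the contralateral 3 h library of WT replicate 1, whose Ttr was 35647. The part of choroid plexus in these Steap4 values was not tested library by library.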

How the results depend on the processing

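Over genotypes, 9 or 10 of the 10 genes were called at 6 h under every alternative run, and 7 to 9 at 3 h under those that kept all libraries. With the replicate block pairing the sides 10 were called at 6 h and 8 at 3 h, and it changed no call over genotypes other than Lcn2 at 3 h and Serpina3n at 6 h. The count moved by over 1.5 times for Neil2-KO at 3 h (3, and 5 by DESeq2), WT at 3 h (3, 5 with the choroid plexus term, and 5 without the high-Ttr libraries), the side by time comparison (4, and 7 with the choroid plexus term), and labelled Neil1-KO minus WT, ipsilaterally (0, 1 each with TMM, edgeR, the Xist term and the choroid plexus term, 3 by DESeq2) and contralaterally (0, and 1 by DESeq2); the cause was not tested. Leaving out 1 library in turn gave 9 to 10 called at 6 h and 5 to 8 at 3 h over genotypes; 9 to 10 at 6 h and 2 to 5 at 3 h for the label Neil1-KO; 5 to 8 at 6 h and 2 to 5 at 3 h for Neil2-KO; 6 to 6 at 6 h and 0 to 3 at 3 h for WT; 2 to 6 for the side by time comparison; 6 to 8 for 6 h minus 3 h ipsilaterally; 0 to 3 and 0 to 1 for labelled Neil1-KO minus WT ipsilaterally and contralaterally; 0 to 1 for its side response at 6 h; and 0 otherwise. Serpina3n at 3 h ranged from -0.19 to 0.06 and changed sign, to 0.01 without WT contralateral replicate 1, and to 0.06 without Neil2-KO ipsilateral replicate 1. Counts over all genes depended more on the fit. With only the compared groups they were 1852 for the label Neil1-KO at 3 h (3130 in the full fit) and 2685 at 6 h (7156), 2790 for Neil2-KO at 3 h (1696), 1946 for WT at 3 h (787) and 2509 at 6 h (3785), 701 for 6 h minus 3 h ipsilaterally (2325) and 228 contralaterally (61), 15 for the side response of the label Neil1-KO minus WT at 6 h (0), 4 for its level ipsilaterally (1710) and 117 contralaterally (19), and 9 for Neil2-KO minus WT ipsilaterally (20). With DESeq2 they were 1304 for WT at 3 h, 798 for the side by time comparison (348), 473 and 24 for the side responses of the labels Neil1-KO and Neil2-KO minus WT at 6 h (0 each), 84 for labelled Neil1-KO minus WT contralaterally, 38 and 37 for Neil2-KO minus WT ipsilaterally and contralaterally (20 and 15), and 268 for 6 h minus 3 h contralaterally. With the choroid plexus term they were 4740 for the label Neil1-KO at 6 h, 1240 for WT at 3 h, 557 for side by time, 195 for labelled Neil1-KO minus WT ipsilaterally and 9 for Neil2-KO minus WT contralaterally. With the Xist term they were 705 for labelled Neil1-KO minus WT ipsilaterally, 9 for Neil2-KO minus WT contralaterally and 34 for 6 h minus 3 h contralaterally. Without the high-Ttr libraries they were 658 for Neil2-KO at 3 h and 9 for Neil2-KO minus WT ipsilaterally, and 4 of 10 radial glia markers were higher at 3 h (8 with them). Side by time within only the compared groups, and without the high-Ttr libraries all comparisons of WT or labelled Neil1-KO sides at 6 h and of times, could not be estimated or were not run. Few reads limit Timp1, Lcn2 and Steap4 contralaterally.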
